A study of Mus musculus with 2 samples.

Results

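The annexins are a family of proteins that bind acidic phospholipids in the presence of calcium. Expression of 9 annexin genes (Anxa1, Anxa2, Anxa3, Anxa4, Anxa5, Anxa6, Anxa7, Anxa11 and Anxa13) and of S100a10, the partner of annexin A2, was compared between 2 mouse livers. These 10 genes were taken by symbol from the 35275 genes listed for both libraries, and all 10 were found. RNA sequencing gave 1 library from an LTsc1KO mouse (genotype label TSC1-/-, a knockout of Tsc1 in the liver) and 1 library from a wild-type (WT) mouse, both C57BL/6 and 10 months old. Tsc1 encodes hamartin, which with tuberin holds the growth kinase complex mTORC1 in check, and the study used loss of Tsc1 as a model of hepatocellular carcinoma that arises without inflammation. The sources used here do not say which promoter drove the deletion. The study's design text refers to tumours, but both samples are labelled as liver, so it is not known whether tumour was sampled.

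Each annexin has a conserved core of repeats that carries the calcium and membrane sites, and a variable N-terminal part that binds other proteins. Through these, annexins scaffold membranes during vesicle traffic, plug tears in the plasma membrane and organise the actin cortex. Annexin A2 and S100a10 form a tetramer at the inner face of the plasma membrane, and at the cell surface this complex binds plasminogen and its activator. Annexins A4 and A13 are best known from epithelia, annexin A1 from leukocytes and the response to glucocorticoids, and annexin A5 from its use as a label for phosphatidylserine on dying cells.

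The libraries held 29351163 reads (LTsc1KO) and 27919645 reads (WT), totals recovered from the deposited FPKM (fragments per kilobase of transcript, scaled to the reads of the library). With 1 library per genotype no spread between animals could be measured, no test was possible and genotypes cannot be told apart from individual animals. Intervals are exact, at 95%, and reflect the number of reads alone. The FPKM of Tsc1 itself was 4.79 in the LTsc1KO-labelled library and 4.90 in the WT-labelled library (ratio 0.976, interval 0.868 to 1.10). A value summed over the whole gene does not check the deletion, so libraries carry their labels as names throughout. Hepatocyte markers were abundant in both libraries, with Alb (albumin) at an FPKM of 5534 and 14351 in the LTsc1KO-labelled and WT-labelled library. The WT-labelled library also held RNA of skeletal muscle: 13 muscle markers summed to an FPKM of 3.09 in the LTsc1KO-labelled library and 3873 in the WT-labelled library, and 5 of them (Mb, Myh1, Myh4, Tnnt3 and Myl1) were listed at 0 in the LTsc1KO-labelled library, whereas none was in the WT-labelled library. Acta1 and Tnnt3 were the most abundant of them there, at an FPKM of 0.119 and 875 (Acta1) and 0 and 690 (Tnnt3) in the LTsc1KO-labelled and WT-labelled library. These 13 genes took 0.000202% of reads in the LTsc1KO-labelled library and 0.452% in the WT-labelled library. Together with the serum amyloid A genes Saa1, Saa2 and Saa3, which the liver makes in the acute-phase response, they took 0.0177% and 9.74%, so serum amyloid A made up most of that share in the WT-labelled library.

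The sequences just before the start sites of 3 annexin genes are shown first, because these genes mark the ends of the range: Anxa2 and Anxa5 had the highest ratios of the 9 annexins and Anxa1 the lowest. Each is the RefSeq promoter of GRCm38.p6, from 250 bases before to 50 bases after the start, written 5′ to 3′ along the gene's strand. Capitals mark matches to 7 motifs searched on both strands. For the stress-responsive factor AP-1 the letters were TGANTCA, and for the antioxidant response element of oxidative stress genes TGACNNNGC. For STAT factors, which act below cytokine receptors, they were TTCNNNGAA. The E-box, bound by Myc and related proteins, was searched as CACGTG, and the TEAD motif of the Hippo pathway as GGAATG. The core promoter element called the TATA box was searched as TATAAA, and the CCAAT box by the letters of its name. AP-1 and antioxidant response matches can overlap in principle, but none did in these stretches. The Anxa2 stretch is chr9:69453433-69453732 (plus strand), the Anxa5 stretch chr3:36475838-36476137 (minus strand) and the Anxa1 stretch chr19:20390622-20390921 (minus strand).
Anxa2: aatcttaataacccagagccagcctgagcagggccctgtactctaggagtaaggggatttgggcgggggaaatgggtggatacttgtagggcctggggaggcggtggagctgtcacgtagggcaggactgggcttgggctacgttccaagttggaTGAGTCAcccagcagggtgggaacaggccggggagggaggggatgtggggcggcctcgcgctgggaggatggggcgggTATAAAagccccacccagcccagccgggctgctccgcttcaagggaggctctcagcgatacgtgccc
Anxa5: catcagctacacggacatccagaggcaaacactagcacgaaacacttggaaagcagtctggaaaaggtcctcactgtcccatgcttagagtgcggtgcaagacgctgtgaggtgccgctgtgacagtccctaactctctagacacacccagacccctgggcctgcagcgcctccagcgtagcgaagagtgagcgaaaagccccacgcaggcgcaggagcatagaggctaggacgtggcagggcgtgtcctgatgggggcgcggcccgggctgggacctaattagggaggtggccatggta
Anxa1: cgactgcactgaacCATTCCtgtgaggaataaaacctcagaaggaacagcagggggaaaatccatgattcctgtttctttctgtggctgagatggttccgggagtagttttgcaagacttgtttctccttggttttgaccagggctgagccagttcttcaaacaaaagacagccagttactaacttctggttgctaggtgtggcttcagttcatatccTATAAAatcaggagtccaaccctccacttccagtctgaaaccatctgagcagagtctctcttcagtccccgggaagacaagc

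The Anxa2 stretch held an AP-1 match at position -95 and a TATA box match at -17, counted from the start. Of 32851 RefSeq promoters of the same length, 7.81% held an AP-1 match and 13.6% a TATA box match. The Anxa1 stretch held a TATA box match at -32 and a TEAD match at -236 on the opposite strand. TEAD matches were found in 14.7% of promoters. The Anxa5 stretch held none of the 7 motifs. No CCAAT box or STAT match lay in the 8 stretches listed for the 6 members with an entry (Anxa1, Anxa2, Anxa4, Anxa5, Anxa7 and Anxa11), against 37.4% and 8.30% of all promoters. An antioxidant response element match lay in 1 of the stretches of Anxa4 and 1 of Anxa7, and that Anxa7 stretch also held an E-box, against 12.4% and 7.15% of all promoters. The stretches of Anxa2 and Anxa5 were richer in G and C (63.7% and 60.3%) than that of Anxa1 (47.3%), around a median of 52.7% for all promoters. A match is a run of letters, not a measured binding site.

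All 10 genes reached an FPKM of 1 in at least 1 library and so counted as expressed. In the LTsc1KO-labelled library 5 of the 10 were at least 2-fold higher (Anxa2, Anxa5, Anxa4, S100a10 and Anxa6) and 0 were at least 2-fold lower, by log2 ratio of FPKM + 1. Among all 12395 expressed genes, 35.6% were at least 2-fold higher and 6.15% at least 2-fold lower. At a 4-fold limit 3 of the 10 were higher (Anxa2, Anxa5 and Anxa4) and 0 lower, beside 8.86% and 2.28% of all expressed genes. The median log2 ratio of the 10 genes was 1.18, and that of all expressed genes was 0.70. Summed over the 9 annexins, FPKM came to 711 in the LTsc1KO-labelled library and 121 in the WT-labelled library, a ratio of 5.90.

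Most genes had a higher FPKM in the LTsc1KO-labelled library, with a median ratio of 1.64 among genes with FPKM no lower than 1 in either library. The sizes of the ratios, and the signs of those near 0, therefore depend on the scaling. After centring on that median ratio, which sets it to 0 on the log2 scale, 15.6% of 11851 expressed genes were at least 2-fold higher and 12.7% lower, and higher genes made up 55.1% of the genes past 2-fold, compared with 85.3% as deposited. On that scale 9 of the 10 genes still counted as expressed (Anxa13 did not). Of these 9, 3 were at least 2-fold higher (Anxa2, Anxa5 and Anxa4) and 1 was at least 2-fold lower (Anxa1). S100a10 and Anxa6, at 0.94 and 0.91, then lay just short of 2-fold, and Anxa3 and Anxa11 turned negative, at -0.36 and -0.29.

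**Figure D1:**
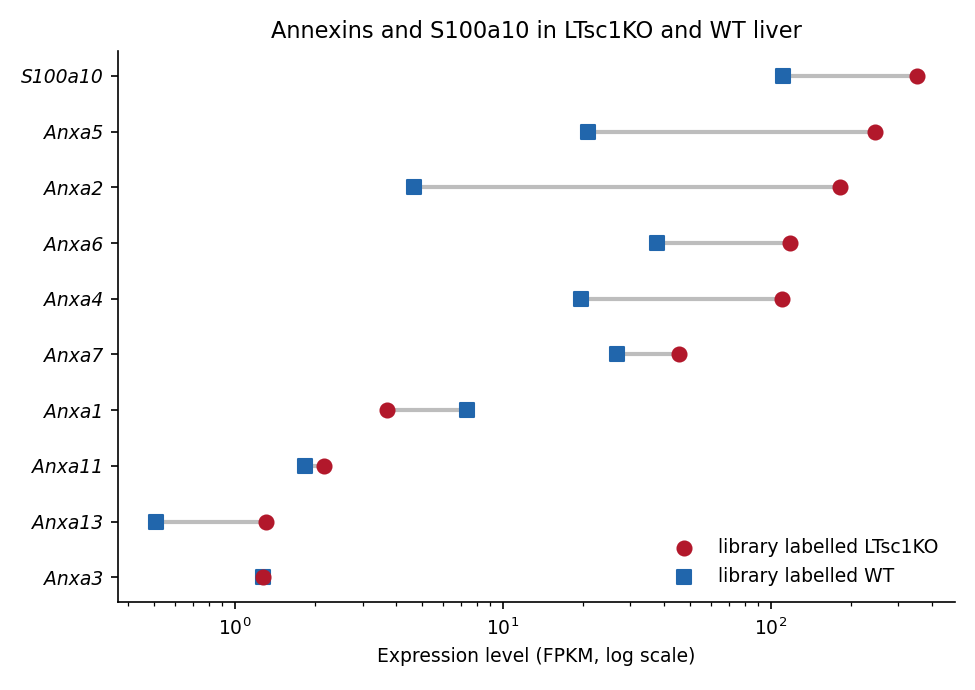
Expression level (FPKM, logarithmic axis) of the 10 genes in the library labelled LTsc1KO (circles) and the library labelled WT (squares), 1 library each, joined by a line per gene. Anxa2 shows the widest gap, at 182 and 4.68, and Anxa1 is the gene whose circle lies left of its square.

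Anxa2 (ENSMUSG00000032231; chromosome 9, 69453620 to 69491795, plus strand; coordinates here and below are GRCm38, from GENCODE M21) encodes the annexin that links the plasma membrane to actin and to S100a10. Its FPKM was 182 (6059 reads) in the LTsc1KO-labelled library and 4.68 (148 reads) in the WT-labelled library, 38.9-fold higher (interval 33.1 to 46.2). Its log2 ratio of 5.01 ranked 50 among the 12395 expressed genes, and by level it ranked 616 in the LTsc1KO-labelled library and 6953 in the WT-labelled library. Of all the members it was the one with the largest ratio, and it stayed at 4.30 with the median ratio set to 0.

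S100a10 (ENSMUSG00000041959; chromosome 3, 93555080 to 93564643, plus strand) encodes p11, a small protein of the S100 family that no longer binds calcium and that annexin A2 protects from degradation. It was the most abundant of the 10 genes in both libraries, with an FPKM of 351 (6090 reads) in the LTsc1KO-labelled library and 111 (1834 reads) in the WT-labelled library, 3.16-fold higher (interval 3.0 to 3.33). The pair was therefore unequal in a different degree in each library: per unit of S100a10 FPKM there was 0.519 of Anxa2 in the LTsc1KO-labelled library and 0.0421 in the WT-labelled library. That is 1.93 times as much S100a10 as Anxa2 by FPKM in the LTsc1KO-labelled library and 23.7 times in the WT-labelled library. These are mRNA levels per length and say nothing of the proteins.

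Anxa5 (ENSMUSG00000027712; chromosome 3, 36448923 to 36475894, minus strand) encodes the annexin known for binding exposed phosphatidylserine. Its FPKM was 246 (12121 reads) in the LTsc1KO-labelled library and 20.7 (972 reads) in the WT-labelled library, 11.9-fold higher (interval 11.1 to 12.7). Its log2 ratio was 3.51 as deposited and 2.79 with the median ratio set to 0, and it was the annexin with the highest level in the LTsc1KO-labelled library.

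Anxa4 (ENSMUSG00000029994; chromosome 6, 86736840 to 86793584, minus strand) encodes an annexin of secretory epithelia, bile ducts included. It had an FPKM of 111 (5156 reads or more) in the LTsc1KO-labelled library and 19.6 (871 reads or more) in the WT-labelled library, 5.63-fold higher (interval 5.24 to 6.06). Its log2 ratio was 2.43, or 1.73 with the median ratio set to 0.

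Anxa6 (ENSMUSG00000018340; chromosome 11, 54979108 to 55033445, minus strand) is built from a duplicated annexin core and takes part in endosome and cholesterol traffic. Its FPKM was 118 (8130 reads) in the LTsc1KO-labelled library and 37.8 (2482 reads) in the WT-labelled library, 3.12-fold higher (interval 2.98 to 3.26). It was the most abundant annexin of the WT-labelled library, and its log2 ratio of 1.61 lay closer to the median of all genes (0.70) than those of Anxa2, Anxa5 and Anxa4 did. Anxa6 is also made in skeletal muscle, and what muscle RNA adds to its value in the WT-labelled library was not tested.

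Anxa7 (ENSMUSG00000021814; chromosome 14, 20455260 to 20480133, minus strand), or synexin, promotes the fusion of secretory granules. At an FPKM of 45.5 (3887 reads or more) in the LTsc1KO-labelled library and 26.7 (2168 reads or more) in the WT-labelled library, its ratio was 1.71 (interval 1.62 to 1.80). Its log2 ratio of 0.75 was nearly that of the median gene, and with the median ratio set to 0 it stood at 0.05. Anxa11 (ENSMUSG00000021866; chromosome 14, 25842156 to 25886804, plus strand), which binds the calcium sensor ALG-2 and tethers RNA granules to lysosomes, had an FPKM of 2.15 (148 reads) and 1.83 (120 reads) in the LTsc1KO-labelled and WT-labelled library. The interval of its ratio, 0.916 to 1.51 around 1.17, held 1, so no difference was detectable at this depth. Of the 36-base words in Anxa11 transcripts 17.0% also occur in transcripts of other genes, chiefly Gm2260 and Gm2274, so reads may have been divided among them.

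Anxa1 (ENSMUSG00000024659; chromosome 19, 20373428 to 20390944, minus strand), the glucocorticoid-induced annexin once called lipocortin, was the single member with a lower FPKM in the LTsc1KO-labelled library. It had an FPKM of 3.72 (71 reads or more) in the LTsc1KO-labelled library and 7.37 (134 reads or more) in the WT-labelled library, 1.98-fold lower (interval 1.48 to 2.68). Its log2 ratio was -0.83 as deposited, inside the 2-fold limit, and -1.36 with the median ratio set to 0, past it. Neutrophils are rich in annexin A1, and 11 neutrophil and monocyte markers summed to an FPKM of 18.2 in the LTsc1KO-labelled library and 36.2 in the WT-labelled library, led by Camp (3.34 and 8.40) and Ngp (4.40 and 6.71). Of the 9 expressed, 0 were at least 2-fold higher and 2 lower (Camp and Mpo) as deposited, and after centring 0 of 8 were higher and 5 lower, beside 6.15% and 12.7% of all expressed genes that were lower on those scales. Ccr2 went the other way, at an FPKM of 1.33 in the LTsc1KO-labelled library and 0.578 in the WT-labelled library. Its ratio was 2.30 (interval 1.68 to 3.19), but its log2 ratio of FPKM + 1 was 0.56. None of these markers was at 0 in either library. Their part in the Anxa1 value was not tested, and in bulk RNA fewer cells of a type cannot be told apart from less RNA per cell.

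Anxa3 and Anxa13 were the scarcest members. Anxa3 (ENSMUSG00000029484; chromosome 5, 96793339 to 96845966, plus strand), an annexin of neutrophil granules and of several epithelia, had an FPKM of 1.28 in each library (60 and 57 reads or more in the LTsc1KO-labelled and WT-labelled library), with a ratio of 1.00 (interval 0.685 to 1.46). Anxa13 (ENSMUSG00000055114; chromosome 15, 58341471 to 58389244, minus strand), known from gut and kidney epithelium, had an FPKM of 1.30 (35 reads) and 0.509 (13 reads) in the LTsc1KO-labelled and WT-labelled library. Its ratio was 2.56 (interval 1.32 to 5.27), but on the scale of FPKM + 1 its log2 ratio was 0.61, because the pseudocount is as large as the values. With a pseudocount of 0.1 it was 1.2 and past 2-fold.

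**Figure D2:**
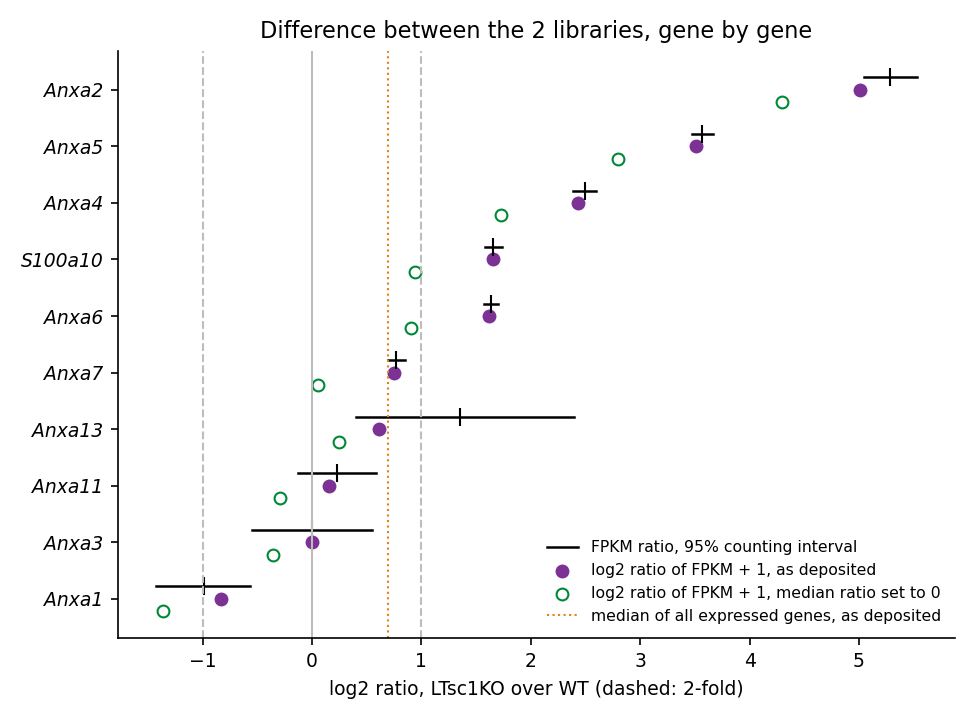
Log2 ratio of each gene, LTsc1KO over WT: black bars are ratios of FPKM with 95% counting intervals, filled purple circles the ratio of FPKM + 1 as deposited, and open green circles the same with the median ratio set to 0. Dashed lines mark 2-fold and the dotted line the median of all expressed genes (0.70). Anxa2, Anxa5 and Anxa4 lie beyond 2-fold on all 3 measures, whereas the open circles of S100a10 and Anxa6 (0.94 and 0.91) fall short of it.

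By counting error alone the ratio lay above 1 in 7 of the 10 genes, below 1 in 1 gene (Anxa1), and was not distinguishable from 1 in the 2 others (Anxa3 and Anxa11). No such count is given for all expressed genes, whose median log2 ratio was itself 0.70, so these counts do not set the 10 genes apart. Of the 10 genes, 6 had a log2 ratio above that median and 4 below it. The genes differed far more among themselves than their counting intervals were wide, with log2 ratios from -0.83 for Anxa1 to 5.01 for Anxa2. Against the whole library, the log2 ratio of Anxa2 was above that of 99.6% of expressed genes, Anxa5 above 98.2% and Anxa4 above 94.7%. S100a10 and Anxa6 stood above 85.9% and 85.1%. At the other end, Anxa1 stood above 7.54% of expressed genes, Anxa3 above 22% and Anxa11 above 26.4%.

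**Figure D3:**
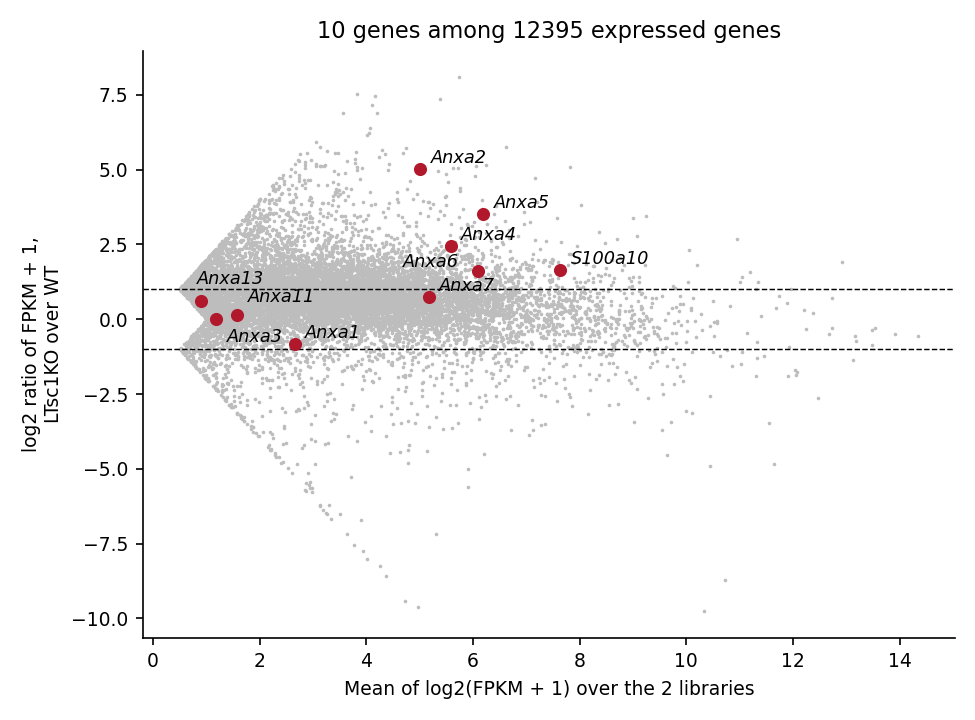
Each grey point is 1 of 12395 expressed genes, with the mean of log2(FPKM + 1) over both libraries on the horizontal axis and the log2 ratio of FPKM + 1, LTsc1KO over WT, on the vertical axis. The 10 genes are red, the dashed lines mark 2-fold. Anxa2, at 5.01, stands above 99.6% of the genes, while Anxa3 and Anxa11 lie near 0.

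The order of levels also differed between the libraries. By FPKM the annexins of the LTsc1KO-labelled library ran Anxa5, Anxa2, Anxa6, Anxa4, Anxa7, Anxa1, Anxa11, Anxa13 and Anxa3. In the WT-labelled library they ran Anxa6, Anxa7, Anxa5, Anxa4, Anxa1, Anxa2, Anxa11, Anxa3 and Anxa13. Neighbours whose counting intervals overlapped were Anxa13 and Anxa3 in the LTsc1KO-labelled library (0.908 to 1.81 and 0.977 to 1.65). In the WT-labelled library they were Anxa5 and Anxa4 (19.5 to 22.1 and 18.4 to 21.0), and Anxa11 and Anxa3 (1.52 to 2.19 and 0.968 to 1.66). Of the summed FPKM of the 9 annexins, Anxa2 took 25.7% in the LTsc1KO-labelled library and 3.88% in the WT-labelled library, and Anxa5 took 34.6% and 17.2%. Anxa4 kept a similar share, 15.6% and 16.3%, although its FPKM was 5.63-fold higher. Anxa6 took 16.6% and 31.3%, Anxa7 6.41% and 22.1%, and Anxa1 0.523% and 6.11%. Shares within a library do not depend on its scaling, but do depend on the gene lengths the authors used.

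**Figure D4:**
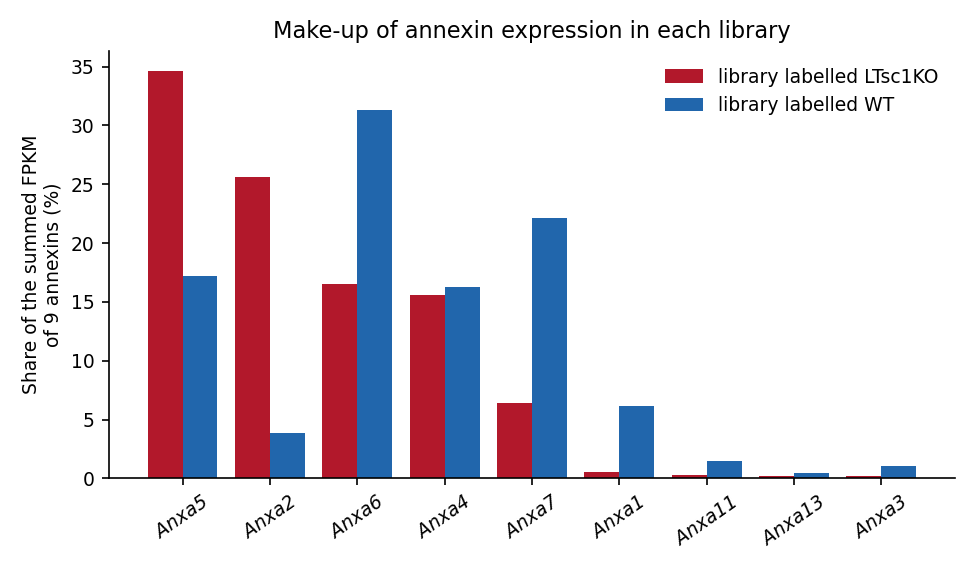
Share of the summed FPKM of the 9 annexins taken by each gene (percent), in the library labelled LTsc1KO (red, left bars) and the library labelled WT (blue, right bars), 1 library each. Anxa5 and Anxa2 lead the red bars at 34.6% and 25.7%, and Anxa6 and Anxa7 the blue bars at 31.3% and 22.1%.

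The 3 annexins outside these 10 were low. Anxa9, whose calcium sites have decayed, had an FPKM of 6.46 (269 reads) in the LTsc1KO-labelled library and 1.09 (43 reads) in the WT-labelled library, 5.95-fold higher (interval 4.30 to 8.41). It shares 71 exonic bases with Mindy1 on the opposite strand, which had an FPKM of 76.8 and 49.0 in the LTsc1KO-labelled and WT-labelled library, and without strand in the counting their reads cannot be told apart. On the same strand it shares 94 exonic bases with 6330562C20Rik, which had an FPKM of 1.68 and 1.28. How reads in that overlap were counted is not known. Anxa8, an annexin of stratified epithelia, had 87 reads (FPKM 1.92) in the LTsc1KO-labelled library and 1 read (FPKM 0.0232) in the WT-labelled library, a ratio of 82.8 with an interval of 14.5 to 3306. Anxa10 had an FPKM of 0.0228 in the LTsc1KO-labelled library and 0 in the WT-labelled library, where 0 reads, with a floor of 3 reads, allow up to about 0.0766 at its mean annotated length, and it did not count as expressed.

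Most of the other S100 genes, small calcium sensors of which several dock on annexins, did not follow S100a10. Of 15 such genes 9 were expressed, 2 at least 2-fold higher in the LTsc1KO-labelled library and 2 lower, with a median log2 ratio of -0.13. The shares of all expressed genes were 35.6% higher and 6.15% lower. After the median ratio was set to 0, 1 of 8 was higher and 4 were lower, beside 15.6% and 12.7%. S100a11, the partner of annexin A1, had an FPKM of 343 (5146 reads) in the LTsc1KO-labelled library and 11.6 (165 reads) in the WT-labelled library, 29.7-fold higher (interval 25.4 to 34.9). It is also the nearest protein-coding gene on one side of S100a10, 28793 bases away on chromosome 3. S100g, a calcium buffer, had 16 reads in the LTsc1KO-labelled library and 0 in the WT-labelled library. S100a9, a subunit of the neutrophil protein calprotectin, had an FPKM of 24.8 and 53.5 in the LTsc1KO-labelled and WT-labelled library, 2.16-fold lower (interval 1.90 to 2.45). The summed neutrophil and monocyte markers given beside Anxa1 were lower in the same library (18.2 and 36.2), and their part in the S100a9 value was not tested.

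Genes of plasminogen activation, the reaction that annexin A2 and S100a10 promote at the cell surface, included both higher and lower members. Of 11 genes 9 were expressed, 3 at least 2-fold higher in the LTsc1KO-labelled library and 2 lower (median 0.32), beside 35.6% and 6.15% of all expressed genes. After centring on the median ratio, 3 of 8 were higher and 4 lower, beside 15.6% and 12.7%. Plat, tissue plasminogen activator, had an FPKM of 4.55 (338 reads or more) and 0.0708 (5 reads or more) in the LTsc1KO-labelled and WT-labelled library, 64.3-fold higher (interval 27.3 to 199). Eno1, enolase, which also serves as a plasminogen receptor, had an FPKM of 1115 and 316, 3.53-fold higher, though close enolase copies may share its reads. Cpb2, a carboxypeptidase that removes plasminogen binding sites from fibrin, had an FPKM of 154 and 545, 3.54-fold lower (interval 3.37 to 3.71).

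Scaffold and membrane repair genes showed both directions as well. Of 12 genes 10 were expressed, 4 at least 2-fold higher in the LTsc1KO-labelled library and 2 lower (median 0.85). Of all expressed genes 35.6% were higher and 6.15% lower. After centring on the median ratio, 3 were higher and 3 lower, beside 15.6% and 12.7%. The higher ones included Ahnak, the giant scaffold that binds the complex of annexin A2 and S100a10, with an FPKM of 19.0 in the LTsc1KO-labelled library and 2.60 in the WT-labelled library, 7.28-fold higher (interval 6.72 to 7.89). Its relative Ahnak2 had an FPKM of 23.2 (2888 reads) and 0.101 (12 reads), 229-fold higher (interval 131 to 444). Trim72, which nucleates membrane repair patches in muscle, had an FPKM of 0.0415 and 11.3 in the LTsc1KO-labelled and WT-labelled library. The skeletal muscle markers summed to 3.09 and 3873, and the part of muscle RNA in this list was not tested.

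Partners of annexins A7 and A11 differed less. All 11 genes of the ALG-2 and ESCRT-III list were expressed, and 5 were at least 2-fold higher in the LTsc1KO-labelled library and 0 lower (median 0.72, next to 0.70 for all genes). The shares of all expressed genes were 35.6% and 6.15%. After centring on the median ratio, 0 were higher and 1 was lower, beside 15.6% and 12.7%. Sri, sorcin, a calcium sensor that binds annexin A7, had the largest log2 ratio of FPKM + 1, at 1.44, with an FPKM of 42.9 and 15.2 in the LTsc1KO-labelled and WT-labelled library, 2.82-fold higher (interval 2.55 to 3.11). Gca (grancalcin) and Vps4b (an ATPase that recycles ESCRT-III) followed, with log2 ratios of 1.37 and 1.26. Pdcd6, which encodes ALG-2 itself, stood at 0.47 and, with the median ratio set to 0, at -0.23.

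Phosphatidylserine genes, which expose or recognise the lipid that annexin A5 binds, were at least 2-fold higher in 5 of 11 expressed cases and lower in 0 (median 0.84), close to the 35.6% and 6.15% of all expressed genes. After centring on the median ratio, 1 was higher and 1 lower, beside 15.6% and 12.7%. Mfge8, a secreted bridge between phosphatidylserine and phagocytes, had an FPKM of 138 in the LTsc1KO-labelled library and 4.71 in the WT-labelled library, 29.3-fold higher (interval 26.0 to 33.2). Ano6, a scramblase that exposes the lipid, was 4.27-fold higher (interval 3.70 to 4.94), and the scavenger receptor Stab1 was 2.98-fold higher (interval 2.53 to 3.53). Formyl peptide receptors, through which annexin A1 signals, were not expressed by the rule used here: Fpr2 had an FPKM of 0.744 and 0.924 and Fpr1 of 0.36 and 0.433 in the LTsc1KO-labelled and WT-labelled library, and Fpr3, Fpr-rs3 and Fpr-rs4 were at 0 in both.

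**Figure D5:**
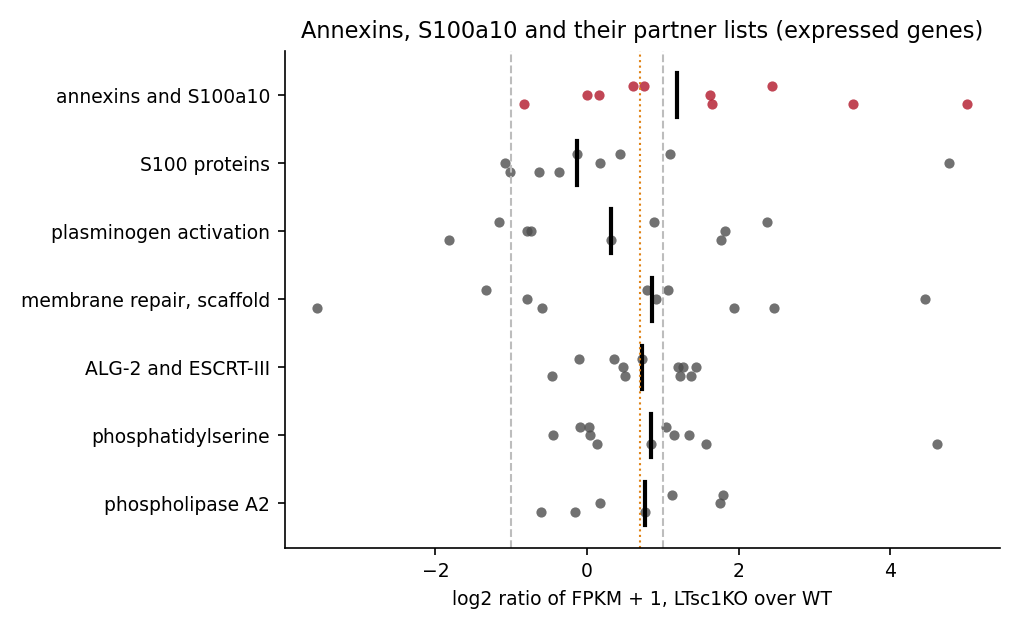
Log2 ratio of FPKM + 1, LTsc1KO over WT, for expressed genes of each list: the annexins and S100a10 in red, partner lists in grey, with the list median as a black bar. Dashed lines mark 2-fold and the dotted line the median of all expressed genes (0.70). The 10 genes spread from -0.83 to 5.01 around a median of 1.18, and S100a11, Ahnak2 and Mfge8 (4.78, 4.46 and 4.61) lie furthest to the right in the S100, scaffold and phosphatidylserine lists.

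Several cell types of the liver express annexins, so the other markers are given beside the members, to be read against the shares of all expressed genes that were at least 2-fold higher or lower (35.6% and 6.15% as deposited, 15.6% and 12.7% after centring). In each pair of FPKM values the LTsc1KO-labelled library is meant before the WT-labelled one. Of 12 cholangiocyte markers 9 were expressed, 7 at least 2-fold higher and 0 lower as deposited, and 3 higher and 0 lower of 7 after centring. Their summed FPKM was 657 in the LTsc1KO-labelled library and 49.0 in the WT-labelled library, or 82.2 and 12.1 without Spp1 (575 and 36.9). Cldn7, a tight junction protein, was 109-fold higher (33.2 and 0.304, interval 52.8 to 273), and the RNA-binding protein gene Bicc1 39.6-fold higher (17.7 and 0.448, interval 29.6 to 54.3). The keratins Krt19 (2.46 and 0.328) and Krt7 (1.10 and 0.372) had lower levels, and were 7.5-fold and 2.97-fold higher (intervals 3.74 to 17.1 and 1.69 to 5.46).

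Proliferation markers were at least 2-fold higher in 5 of 5 cases on either scale and summed to an FPKM of 188 in the LTsc1KO-labelled library and 2.22 in the WT-labelled library, led by Mcm6 (96.0 and 1.02) and Cdk1 (37.5 and 0.532). Of 7 expressed macrophage markers 1 was higher and 1 lower as deposited, and 1 and 2 after centring. They summed to 101 and 46.7, led by Cd68 (52.3 and 1.32) and C1qa (21.4 and 14.6), and to 48.8 and 45.3 without Cd68. Marco (0.505 and 3.37), Cd5l (6.10 and 9.41) and Clec4f (11.7 and 13.5) went the other way. Their ratios were 0.150 (interval 0.084 to 0.251), 0.649 (0.567 to 0.743) and 0.868 (0.770 to 0.978). Csf1r, Vsig4 and Adgre1, like Cd68 and C1qa, had a higher FPKM in the LTsc1KO-labelled library. Of 5 expressed sinusoidal endothelial markers 2 were higher and 0 lower as deposited, but after centring 0 of 3 were higher or lower. Their sums were 39.6 and 20.9, mostly from Stab2 (28.3 and 13.2) and Fcgr2b (5.50 and 2.33). Markers at lower levels included some that went the other way. Pecam1 (1.23 and 1.98) had a ratio of 0.618 (interval 0.468 to 0.813). Kdr and Cdh5, below an FPKM of 1, had ratios of 0.534 (0.370 to 0.764) and 0.535 (0.321 to 0.875). Of 5 expressed stellate cell and fibroblast markers 2 were higher and 2 lower as deposited, and 0 and 2 after centring. These summed to 17.3 and 36.1, or 12.7 and 12.4 without Dcn (4.56 and 23.7). Colec11 stood at 2.32 and 6.32. The 2 higher as deposited were Col1a1 (3.35 and 0.563) and Col3a1 (4.82 and 1.62). Their ratios were 5.95 (interval 3.97 to 9.21) and 2.97 (interval 2.31 to 3.86).

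Of 8 hepatocyte markers 0 were higher and 2 lower as deposited, and 0 and 5 after centring, with a summed FPKM of 26900 in the LTsc1KO-labelled library and 42628 in the WT-labelled library, led by Alb and Apoa1 (10135 and 12963). Ttr (5662 and 2833) and Hnf4a (325 and 259) went the other way, with ratios of 1.998 (interval 1.983 to 2.014) and 1.25 (1.23 to 1.28). The log2 ratio of Ttr, 0.999, fell just short of 2-fold. After centring it was 0.28, and that of Hnf4a was -0.39. Apoc3, Cps1, Tat and Ass1, like Alb and Apoa1, had a lower FPKM in the LTsc1KO-labelled library. Lymphocyte markers summed to 2.66 and 2.68, with Nkg7 at 0.815 and 1.02 and Cd3g at 0.769 and 0.497. Mesothelial markers summed to 0.698 and 0.510, with Lrrn4 at 0.376 and 0.0771 and Gpm6a at 0.184 and 0.183. Erythroid markers summed to 73.7 and 783, led by Hbb-bs (27.8 and 377) and Hba-a1 (24.7 and 196), with 0 of 6 expressed genes higher and 4 lower as deposited, and 0 and 5 of 5 after centring. Slc4a1, another erythroid marker, went the other way (1.26 and 0.210). Its ratio was 5.98 (interval 2.67 to 15.7), but its log2 ratio of FPKM + 1 was 0.90 as deposited. What any of these cell types adds to the annexin values was not tested.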

How the data were processed

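Values deposited by the authors are FPKM, 1 column per library. The submitters' processing notes list CASAVA 1.7, Bowtie 0.12.2 and the mm8 build without saying what each was used for. For the counter, annotation, strandedness and handling of multiply matching reads: not given in the sources used here. Gene IDs were matched to GENCODE M21 symbols (34490 of 35275, 97.8%, and 10 of 10 members). Coordinates are GRCm38, since the files hold none.

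Library totals were recovered from steps in the FPKM, which are whole multiples of 1 read at a gene's length. Of 17104 genes above 0 in both libraries, 54.0% gave whole reads (within 0.01) at the rounded mean length of their annotated transcripts, and 97.7% did at that or another length (within 0.0001 where all lengths were searched). Where several lengths fitted, as for Anxa1, Anxa3, Anxa4 and Anxa7, the shortest was used, which gives the fewest reads ("or more") and the widest interval. Count models were left aside.

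Libraries were compared by log2 of (FPKM + 1) in the library labelled LTsc1KO over that in the library labelled WT. A gene counted as expressed when either library reached an FPKM of 1, and a log2 ratio of at least 1 or at most -1 as 2-fold. Folds with intervals are FPKM ratios without pseudocount, with exact binomial (Clopper-Pearson) intervals, and level intervals are exact Poisson ones. The floor is 3 reads.

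Members and lists were chosen with earlier results of these data known. Text names all annexins, the 3 expressed genes of each partner list with the largest absolute ratio and the largest opposite one if at least 2-fold, and of marker lists the sums and the 2 highest genes. Some genes were named outside this rule after their values were seen. They were Bicc1, Krt7, Krt19, Mpo, Ccr2, Pecam1, Kdr, Cdh5, Col1a1, Col3a1, Slc4a1, Pdcd6, genes beside or overlapping members or Anxa9, and genes at 0. Among hepatocyte markers they were Ttr, Hnf4a, Apoc3, Cps1, Tat and Ass1, and among macrophage markers Marco, Cd5l, Clec4f, Csf1r, Vsig4 and Adgre1. The recovery of reads and the ratios were tested on simulated data, in which each gene had the mean length of its transcripts. The search over other lengths, used for Anxa1, Anxa3, Anxa4, Anxa5 and Anxa7, was therefore not tested there. Alternatives were another pseudocount (0.1 or 5), no minimum FPKM or one of 5, 4 scalings and a 4-fold limit. Tools were scipy 1.17.1, numpy 2.4.6 and pandas 2.3.3 under Python 3.11.15, with matplotlib 3.10.9 for plots.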

Additional observations from a re-analysis of the deposited data

How the results depend on the processing

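The count of members at least 2-fold higher was 5 as deposited, and 3 after setting the median ratio to 0, after setting upper quartiles equal, or at a 4-fold limit. It was 6, with Anxa13, at a pseudocount of 0.1, and 5 under the other alternatives. The share of all expressed genes that far higher moved as well, from 35.6% as deposited. It was 15.6% under the median-ratio scaling, 15.8% under the upper-quartile scaling and 8.86% at the 4-fold limit. Pseudocounts of 0.1 and 5 gave 42.9% and 18.0%, and no minimum FPKM or one of 5 gave 21.4% and 38.5%. Equal sums of FPKM gave 42.4%, and totals without muscle and serum amyloid A genes 30.8%. Members at least 2-fold lower numbered 0, but 1 (Anxa1) under the median-ratio and upper-quartile scalings, where 12.7% and 12.5% of all expressed genes were lower. The median log2 ratio of members, 1.18 as deposited, was 1.65 over the members left by a minimum FPKM of 5, 1.42 with a pseudocount of 0.1, 1.36 with the sums of FPKM set equal, 1.10 with a pseudocount of 5, 0.91 under the median-ratio scaling, 0.92 under the upper-quartile scaling, and 1.04 with muscle markers and serum amyloid A genes (0.0177% of reads in the LTsc1KO-labelled library and 9.74% in the WT-labelled library) left out of the totals. These moves follow from the scaling, pseudocount or filter itself. The log2 ratio of Anxa2 ran from 4.27 to 5.25, that of Anxa5 from 2.79 to 3.68 and that of Anxa4 from 1.73 to 2.61, past 2-fold under each pseudocount and scaling tried. Anxa3 and Anxa11 had either sign, from -0.36 to 0.10 and from -0.29 to 0.28. No member past 2-fold changed sign. With 1 library per genotype no library could be left out, and no value shows the spread between animals. No paired analysis was possible because each genotype has a single library.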

Other observations

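Other lipid enzymes and the genes beside the members are given here as values. Annexin A1, as lipocortin, was first described as an inhibitor of phospholipase A2. Of 12 genes of phospholipase A2 and eicosanoid synthesis 7 were expressed, 3 at least 2-fold higher in the LTsc1KO-labelled library and 0 lower (median log2 ratio 0.76). Of all expressed genes 35.6% were higher and 6.15% lower. After centring on the median ratio, 2 were higher and 1 lower, beside 15.6% and 12.7%. Pla2g6, a calcium-independent phospholipase, had an FPKM of 48.1 in the LTsc1KO-labelled library and 13.2 in the WT-labelled library, 3.66-fold higher (interval 3.35 to 4.0). Pla2g12b was 2.20-fold higher (interval 2.04 to 2.38), and Pla2g5, a secreted form, had 73 reads and 1 read. Ptgs2, the inducible cyclooxygenase, and Pla2g2a were at 0 in both libraries.

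The nearest protein-coding genes on the 2 sides of the 10 members numbered 20. Tdpoz2 was not analysed here. Of the 20, 10 were expressed, 4 of these at least 2-fold higher in the LTsc1KO-labelled library and 0 lower, close to the 35.6% and 6.15% of all expressed genes, with a median log2 ratio of 0.83. Besides S100a11 they were Tnip1 beside Anxa6 (FPKM 47.1 in the LTsc1KO-labelled library and 3.94 in the WT-labelled library, log2 ratio 3.28) and Gmcl1 and Aak1 beside Anxa4 (1.60 and 1.09). Ice2, the expressed neighbour of Anxa2, stood at 0.50. Aldh1a1, beside Anxa1, stood at -0.16.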
